A study of Tupaia belangeri with 8 samples.

Results

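The 77 miRNAs described here are predicted ones: they carry a number in place of a miRNA name, and at least 80 reads were counted for each over the 8 libraries of the series. They were chosen from 225 predicted miRNAs, and the table also holds 159 known miRNAs, 384 in all. The small RNA came from primary brain neurons of neonatal tree shrews (Tupaia belangeri), a small mammal close to primates, and the study selected cells with dopaminergic activity. METH cultures (4 libraries) were kept for 24 h with methamphetamine, a psychostimulant that releases dopamine, added as 5 µl of a stock given as 100 mmol to 995 µl of medium. PBS cultures (4 libraries) received medium without the drug. Both groups were rinsed with PBS first and grew in Neurobasal-A with B-27 and 15% fetal bovine serum. Whether libraries of a group represent different animals or cultures is not stated, so p-values measure the spread between these libraries, which may be technical.

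A miRNA is cut from a hairpin transcript by Drosha and Dicer, is loaded into an Argonaute protein and represses mRNAs that pair with its seed, the stretch near its 5′ end. A predicted miRNA is one that software proposes from reads whose genome locus can fold into such a hairpin. It can be a true miRNA that the reference catalogue lacks, a homologue of one named in another species, or a fragment of another RNA. The tables used here pair the numbers with no sequence, hairpin or position, so no seed, family or function is given for any of the 77, and a read that fits both a known and a predicted miRNA could have been counted for either.

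The summed count that chose the members lay between 83 and 497673, with a median of 1005. Just inside the threshold were novel_412, novel_545 and novel_536 with 83, 85 and 87 reads, and just outside it novel_208, novel_159 and novel_469 with 78, 75 and 73. The libraries numbered 4 held 64.7% of all member reads, so the rule leans on them.

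Total counts were between 339243 and 6702946 in METH libraries and between 388419 and 7334789 in PBS libraries. On principal component 1 of all miRNAs, with 65.7% of the variance, METH 3, PBS 1 and PBS 3 lay on one side and the other 5 libraries on the opposite side. Of 8 neuron miRNAs listed, 5 were in the table, and their summed level was 20754 to 92612 TPM (reads of a miRNA scaled to a common library total) in METH and 21437 to 94069 in PBS. The defining neuron miRNA miR-124 was not among them. Of 2 oligodendrocyte miRNAs, 1 was listed, and it reached at most 0.597 TPM in METH and 0.273 in PBS. The 3 fibroblast and smooth muscle miRNAs in the table (of 4) summed to 13571 to 59378 TPM in METH and 16689 to 60941 in PBS, and the 2 astrocyte miRNAs (of 2) to 1149 to 3702 and 1259 to 2975. In whole cultures, fewer cells of a type and less RNA per cell cannot be told apart.

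Together the 77 members made up a large part of some libraries and a small part of others. They held 4.46%, 8.17%, 28.03% and 5.70% of the counts in METH 1 to 4, and 23.3%, 4.83%, 22.3% and 5.43% in PBS 1 to 4. METH 3, PBS 1 and PBS 3 were high and the other 5 libraries low, with libraries of both groups on each side, so the groups overlapped. The mean was 11.6% ± 11.1 in METH and 14.0% ± 10.2 in PBS (SD, n = 4 each), a difference of −2.37 percentage points, smaller than either SD. Single libraries decided its size and sign. It was −7.85 points without METH 3, −5.42 without PBS 2 and −5.22 without PBS 4, but 0.746 without PBS 1, 0.398 without PBS 3 and 0.0036 without METH 1. It was −1.23 without METH 2 and −0.409 without METH 4. Without METH 3, PBS 1 and PBS 3 the difference was 0.981 points, with means of 6.11% in METH and 5.13% in PBS. The 95% Wilson interval of each share reached at most 0.151 points to either side, for counting error only.

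Several known miRNAs also stood apart in METH 3, PBS 1 and PBS 3. miR-21-5p, an injury-induced miRNA and the most abundant of the table, held 5.26% of METH 3, 7.53% of PBS 1 and 6.95% of PBS 3, and at least 33.5% of each other library. Of the counts outside miR-21-5p, the members held 7.34%, 13.2%, 29.6% and 10.9% in METH 1 to 4 and 25.2%, 7.26%, 23.9% and 10.7% in PBS 1 to 4, so the same 3 libraries stayed the highest. The 2 leukocyte miRNAs in the table, of 4 listed, summed to 5344 TPM in METH 3, 3110 in PBS 1 and 4786 in PBS 3. The sum was at most 883 in the others, and nearly all of each sum was miR-155-5p. miR-142 did not share the pattern, with 0 reads in METH 3 and PBS 1, 3 in PBS 3 and its highest count of 36 in METH 1. The 4 epithelial miRNAs of the miR-200 family summed to 513 TPM in METH 3 and 549 in PBS 1 but to 46.3 in PBS 3. miR-143-3p of the fibroblast and smooth muscle list was at 1250 TPM in METH 3, 2787 in PBS 1 and 9065 in PBS 3. It was at 18044 to 52563 in the other 5. The rest of that list did not share this. miR-199b-3p was at 12313 TPM in METH 3, 13849 in PBS 1 and 25594 in PBS 3, against 8353 to 23583 in the other 5. miR-10b-5p was at 8.84 TPM in METH 3, 53.2 in PBS 1 and 30.9 in PBS 3, against 4.18 to 29.5. Members of the neuron list split in opposite directions. miR-129-5p was at 15072 TPM in METH 3, 5663 in PBS 1 and 2865 in PBS 3, against 144 to 1372 in the other 5. miR-218-5p was at 554, 688 and 353 TPM in those 3, against 1249 to 2307. For miR-9-5p, miR-128 and miR-7-5p the 3 libraries overlapped with the other 5. Whether these miRNAs mark such cell types here, and the part of any such cells in the members' share, was not tested.

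**Figure D1:**
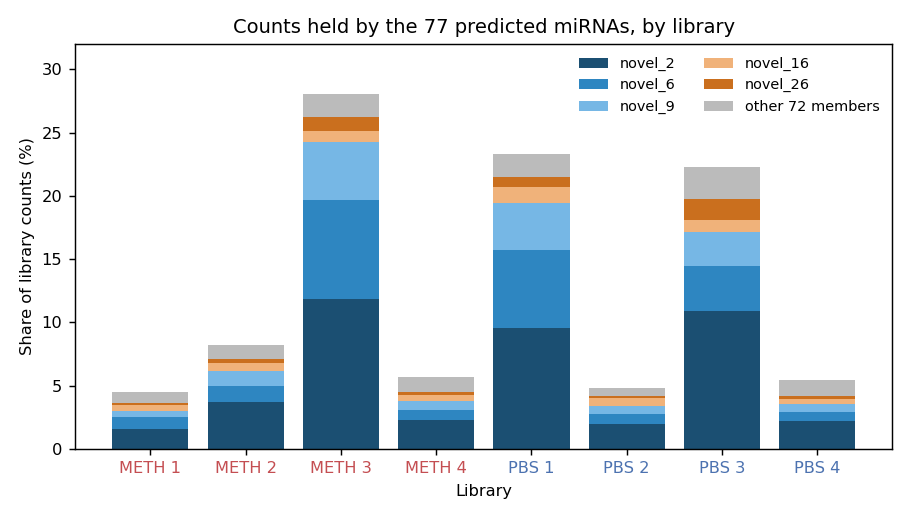
Share of each library's miRNA counts (%, vertical axis) held by the 77 predicted miRNAs in the 4 METH and the 4 PBS libraries, with the 5 most abundant members and the other 72 stacked. The bars of METH 3, PBS 1 and PBS 3 reach 28.03%, 23.3% and 22.3%, and the other 5 stay at or below 8.17%.

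Counts were concentrated in very few members. novel_2 alone held 35.9% to 44.9% of the member counts in METH libraries and 40.2% to 48.8% in PBS libraries. The 5 leading members, novel_2, novel_6, novel_9, novel_16 and novel_26, together held 78.3% to 93.6% in METH and 77.1% to 92.1% in PBS. Between 4 and 13 members were enough for 90% of the member counts in METH libraries, and between 5 and 12 in PBS libraries. The effective number of members (the exponential of the Shannon entropy, which equals the number of members if all were equally abundant) was 7.66 ± 2.13 in METH and 7.20 ± 1.78 in PBS (SD, n = 4 each). It was lowest where the members' share was highest, at 5.10 in METH 3, 5.70 in PBS 1 and 6.01 in PBS 3. The known miRNAs went the other way, with an effective number of 28.1 in METH 3, 26.7 in PBS 1 and 29.4 in PBS 3, against 9.43 to 13.5 in the other 5 libraries. The most abundant known miRNA held 11.8%, 10.8% and 8.95% of the known counts there, against 35.2% to 52.1% in the other 5. An effective number of the known miRNAs without miR-21-5p was not computed.

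novel_2 ranked 3 of all 384 miRNAs by its mean share, just below miR-148a-3p and above miR-99a-5p. Its share was 1.60%, 3.67%, 11.9% and 2.25% in METH 1 to 4 and 9.52%, 1.94%, 10.9% and 2.23% in PBS 1 to 4. It was the single most abundant miRNA in METH 3, PBS 1 and PBS 3, and ranked between 9 and 12 in the other 5. novel_6, at rank 12 of the 384, held 0.934%, 1.28%, 7.85% and 0.773% in METH 1 to 4 and 6.199%, 0.777%, 3.62% and 0.644% in PBS 1 to 4. novel_9, at rank 14 of the 384, held 0.421%, 1.17%, 4.51% and 0.717% in METH 1 to 4 and 3.73%, 0.641%, 2.62% and 0.626% in PBS 1 to 4. All of these 3 were highest in METH 3, PBS 1 and PBS 3, whichever group the library belonged to.

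novel_26 followed the same division, with 0.156%, 0.338%, 1.11% and 0.208% in METH 1 to 4 and 0.755%, 0.176%, 1.66% and 0.235% in PBS 1 to 4. novel_16 did so only faintly, with 0.541%, 0.654%, 0.916% and 0.510% in METH 1 to 4 and 1.27%, 0.638%, 1.02% and 0.452% in PBS 1 to 4. Its rank lay between 17 and 26 in all 8 libraries. Of the next members, novel_482 averaged 0.231% of the counts, novel_27 0.162%, novel_516 0.120%, novel_367 0.0797% and novel_35 0.0653%. The other 72 members together held 0.809% to 1.79% of the counts in METH libraries and 0.656% to 2.49% in PBS libraries.

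Nearly all members were seen in every library. At least 1 read was counted for 74 to 77 of them in METH libraries and for 74 to 77 in PBS libraries, and 69 had a read in all 8. After thinning to the smallest library total of 339243 counts, 72.7 ± 0.885 were expected in METH and 72.3 ± 2.03 in PBS (SD, n = 4 each). Detection is partly fixed by the rule. With 10 reads as the limit, 48 to 76 members were reached in METH libraries and 48 to 76 in PBS libraries, with both values of 76 in the libraries numbered 4. 10 members stayed under 10 reads in each of the 6 shallower libraries. novel_175 had no read in METH 3, PBS 1, PBS 2 and PBS 3, where a count of 0 allows up to 8.84, 5.70, 3.85 and 7.72 TPM.

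To compare members between libraries, counts were divided by the library size scaled with TMM factors, which gives normalised CPM. The factors were 0.742, 1.01, 1.12 and 0.792 for METH 1 to 4 and 1.48, 0.650, 1.84 and 0.846 for PBS 1 to 4, so this scaling brings PBS 1 and PBS 3 down relative to METH 3. In normalised CPM, METH 3 was the highest library for 24 of the 77 members and METH 4 for 16. By share of counts, METH 3 was the highest for 22, PBS 1 for 17, and METH 4 for 9. The 3 highest libraries were METH 3, PBS 1 and PBS 3 for 16 members in normalised CPM and for 31 by share of counts. The 3 lowest were those libraries for 10 members in normalised CPM and for 6 by share of counts. Among the 133 known miRNAs with the same number of reads, these libraries were the 3 highest for 24 and the 3 lowest for 46 in normalised CPM. By share of counts they were the 3 highest for 47 known miRNAs and the 3 lowest for 26, so which side was more frequent among the known miRNAs turned with the scaling.

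**Figure D2:**
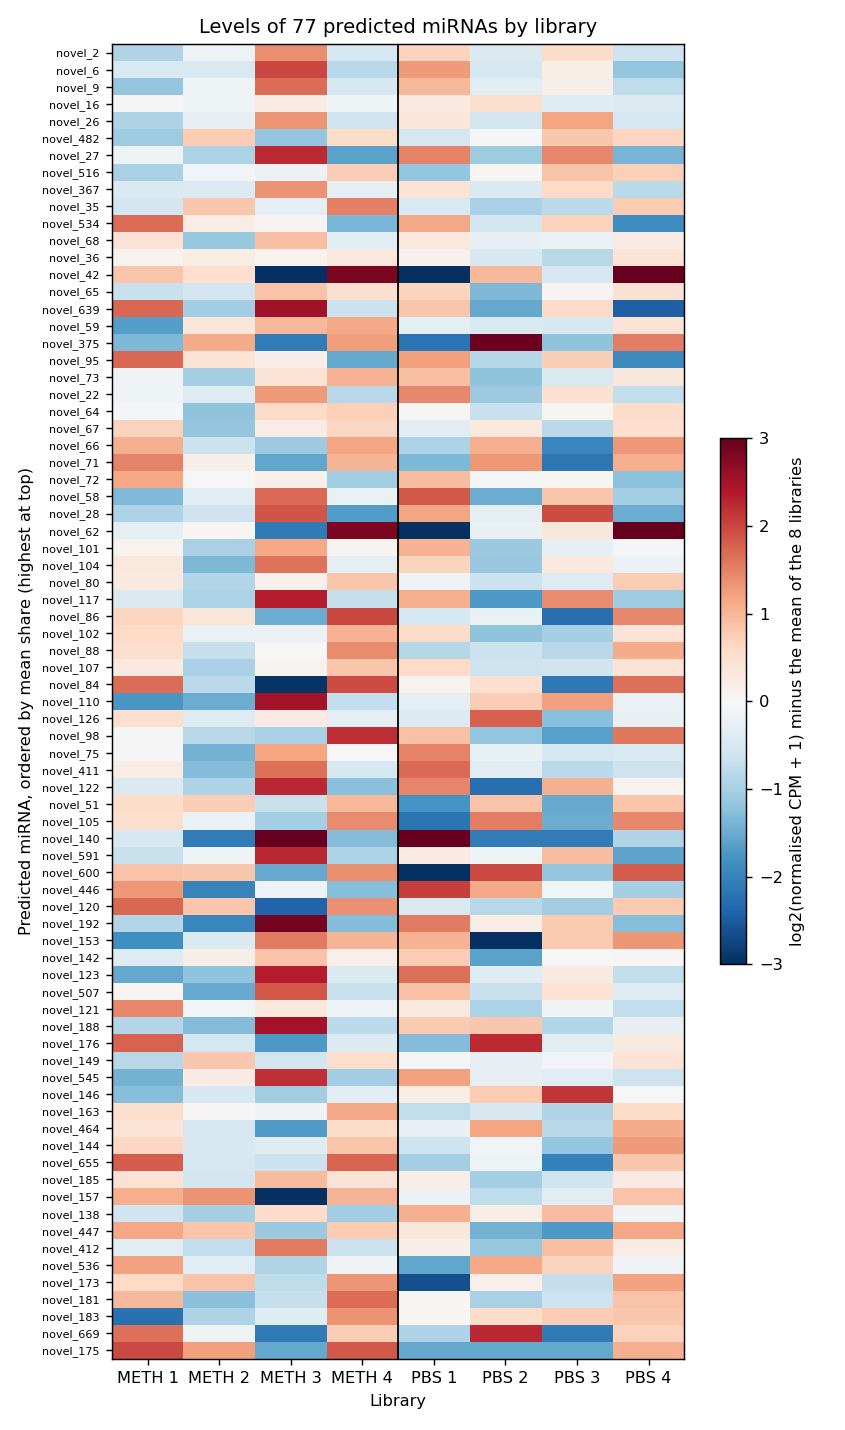
Levels of the 77 members (rows, most abundant at the top) in the 4 METH and 4 PBS libraries (columns), as log2(normalised CPM + 1) minus the member's mean over the 8 libraries. The METH 3 column is the reddest, being the highest library for 24 members, and no block of rows separates the 4 METH from the 4 PBS columns.

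The range between libraries was wide for most members. Over the 69 members with reads in all 8 libraries, the largest normalised CPM was 9.21 times the smallest at the median, and it was at least 10-fold for 31. By share of counts the median was 10.7-fold. Within groups, the median coefficient of variation was 73.3% in METH and 71.9% in PBS over the 77 members, and 69.3% in METH and 66.2% in PBS over the 133 known miRNAs. Counting error alone would give a median of 15.0% for the members. The variation was also there among members with a mean of 300 normalised CPM or more, 18 in number, with 76.9% in METH and 53.02% in PBS and a counting error of 4.55%. Averaged over both groups, the median was 76.7% for the members and 69.5% for the known miRNAs. Without METH 3, PBS 1 and PBS 3 these were 49.7% and 39.3%, from fewer libraries in each group, so the values are not directly comparable. Those libraries were left out because they stood apart in these same data, so a fall is not an independent result.

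The narrowest ranges among members that passed the count filter belonged to novel_16, novel_36, novel_80 and novel_107, at 1.83-fold, 2.37-fold, 3.34-fold and 3.59-fold. novel_16 was at 7292, 6461, 8188 and 6445 normalised CPM in METH 1 to 4 and at 8637, 9817, 5522 and 5351 in PBS 1 to 4. novel_36 was at 396, 427, 395 and 457 normalised CPM in METH 1 to 4 and at 401, 261, 206 and 487 in PBS 1 to 4. The METH values of both members lay inside their PBS range. By share of counts the ranges of these 2 were 2.81-fold and 3.49-fold.

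The widest ranges belonged to novel_42 and novel_62, which were far higher in the libraries numbered 4 than in any other. novel_42 was at 296, 235, 7.90 and 1175 normalised CPM in METH 1 to 4 and at 14.2, 326, 115 and 1428 in PBS 1 to 4, a range of 181-fold. Its lowest value, in METH 3, rests on 3 reads, so the fold is imprecise. novel_62 was at 69.2, 87.2, 18.4 and 600.2 normalised CPM in METH 1 to 4 and at 5.16, 71.1, 106 and 734 in PBS 1 to 4, a range of 142-fold. Its lowest value, in PBS 1, rests on 4 reads, with the same limit. The libraries numbered 4 are also the deepest, and the part of depth in this difference was not tested. 2 members that passed the filter had a library with no read. novel_600 was not counted in PBS 1, and its 69.1 normalised CPM in PBS 2 was at least 17.9-fold higher than the 3 counts that a 0 allows there. novel_153 was not counted in PBS 2, and its 31.6 normalised CPM in METH 3 was at least 5.33-fold higher than that limit.

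**Figure D3:**
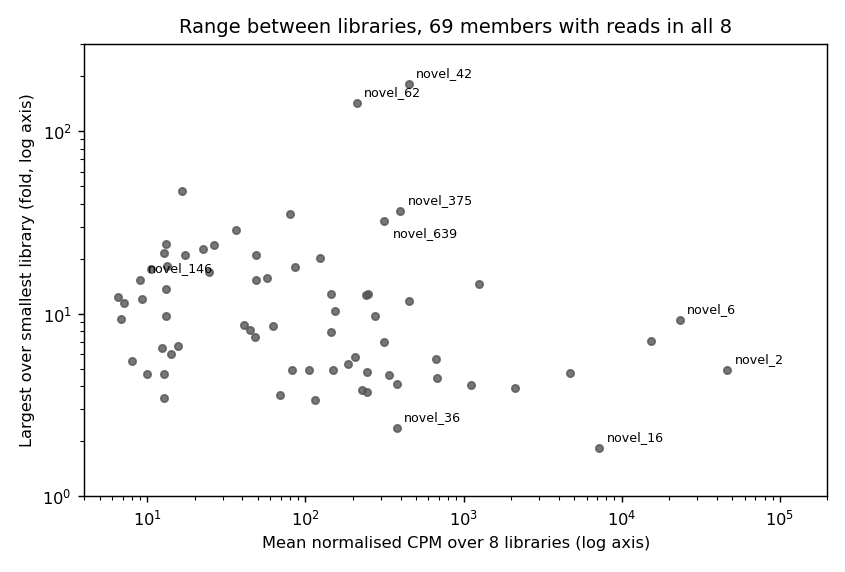
Largest over smallest normalised CPM among the 8 libraries (fold, log axis) against the mean normalised CPM (log axis), with 1 point for each of the 69 members with reads in every library. novel_42 and novel_62 lie at the top with 181-fold and 142-fold, and novel_16 at the bottom with 1.83-fold. The lowest values of novel_42 and novel_62 rest on 3 and 4 reads.

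The 2 deep libraries gave nearly the same member levels. The ratio of METH 4 to PBS 4, in TPM, had a median of 1.01 over the 77 members and lay between 0.5 and 2 for 73 of them. For the 133 known miRNAs the median was 1.09, with 125 between 0.5 and 2. The highest ratio among the members was 3.37 for novel_639 and the lowest 0.346 for novel_122. This compares 1 library with 1 library and says nothing of the spread within a group.

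No predicted miRNA was called different between METH and PBS. Of the 77 members, 53 passed the count filter and held 99.7% of the member reads. edgeR's quasi-likelihood test called 0 of these 53 higher and 0 lower at an adjusted p of 0.05, against 0% of the 166 miRNAs tested in all, and 0 had an unadjusted p under 0.05. For DESeq2 the number was also 0 of 77, and 1 member, novel_146, was below 0.05 before adjustment. With a mean count of at least 10 as the filter, which admits all 77, edgeR again made no call, and the same member alone was below 0.05 before adjustment. The lowest p of a tested member was 0.169 (edgeR adjusted p = 0.999).

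The precision was low. The 95% interval of a tested member's log2 fold change reached 1.71 to either side at the median, or 3.28-fold, and it excluded an 8-fold change for 49 of the 53, a 4-fold change for 23 and a 2-fold change for 0. The log2 fold changes, METH over PBS, lay between −1.12 and 1.42 with a median of 0.17, and 37 were above 0 and 16 below. Over all 166 miRNAs the median was 0.21 and 75.9% were above 0. The split depended on the scaling. It was 29 above and 24 below when scaled by DESeq2 size factors, 26 and 27 by upper quartile factors, 19 and 34 with TMM factors from the known miRNAs alone, and 12 and 41 with total counts, which moved all miRNAs by a median of −0.15, −0.16, −0.21 and −0.35. No general direction therefore held for the members. The 24 members below the filter, fitted with no filter, had a median of 0.03, with 13 above 0 and 11 below.

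**Figure D4:**
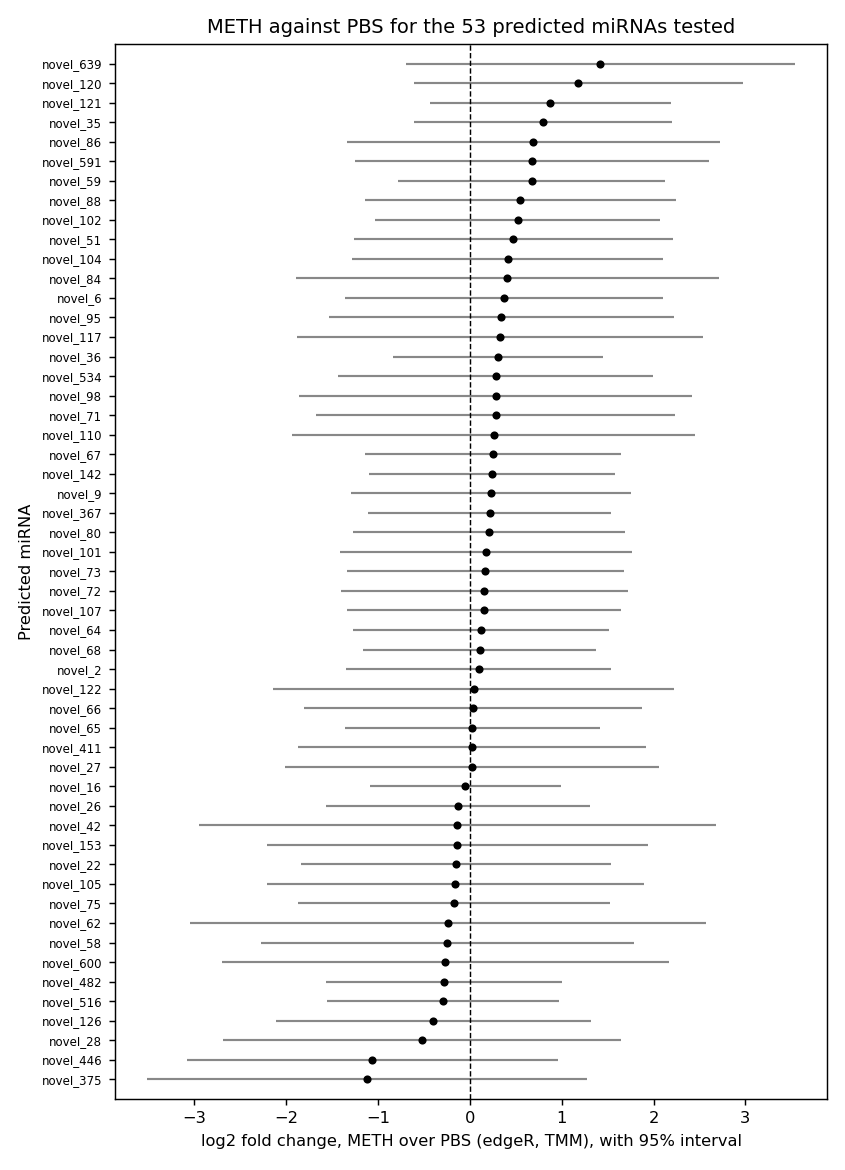
log2 fold change, METH over PBS, of the 53 members tested (points) with 95% intervals (lines), ordered by value, from edgeR with TMM scaling. Every interval crosses 0, and the points lie between −1.12 and 1.42.

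Among the 10 tested members with the smallest p, 8 had higher means in METH. Over all 166 miRNAs tested, 75.9% had a log2 fold change above 0 with this scaling and 38.6% with total counts. novel_639 was at 593, 85.7, 1024 and 114 normalised CPM in METH 1 to 4 and at 320, 61.2, 266 and 31.8 in PBS 1 to 4. METH 1 and METH 3 were above every PBS library, while METH 2 and METH 4 lay inside the PBS range (log2 fold change 1.42, SE 0.97, edgeR adjusted p = 0.999). The value was 0.57 without METH 3, 0.78 with total counts and 2.58 without METH 3, PBS 1 and PBS 3.

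novel_120 was at 62.9, 33.4, 2.63 and 48.4 normalised CPM in METH 1 to 4 and at 12.9, 9.87, 8.39 and 32.2 in PBS 1 to 4, with a single read in METH 3. The other 3 METH libraries were above every PBS library (log2 fold change 1.18, SE 0.82; 1.88 without PBS 4). novel_121 was at 35.6, 11.6, 15.8 and 11.1 normalised CPM in METH 1 to 4 and at 15.5, 5.92, 11.2 and 7.10 in PBS 1 to 4, from 6 to 17 reads in the METH libraries outside METH 4. METH 1 and, narrowly, METH 3 were above every PBS library, and the other 2 lay within the PBS range (log2 fold change 0.88, SE 0.60; 0.21 without METH 1 and 0.32 with total counts). novel_35, at rank 10 among the members, was at 375, 982, 456 and 1593 normalised CPM in METH 1 to 4 and at 406, 282, 325 and 946 in PBS 1 to 4. METH 2 and METH 4 were above the highest PBS library and the other 2 were not (log2 fold change 0.80, SE 0.64; 0.34 without METH 4 and 1.36 without PBS 4).

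novel_375 and novel_446 had lower means in METH. novel_375 was at 75.5, 420, 44.8 and 464 normalised CPM in METH 1 to 4 and at 41.3, 1503, 83.9 and 560 in PBS 1 to 4, so PBS 2 was far above all other libraries. Its log2 fold change was −1.12 (SE 1.09), and 0.10 without PBS 2. novel_446 was at 37.7, 2.91, 13.2 and 5.46 normalised CPM in METH 1 to 4 and at 65.8, 33.6, 14.0 and 6.93 in PBS 1 to 4, and the groups overlapped. Its log2 fold change was −1.06 (SE 0.92), −0.33 without PBS 1, −0.35 without METH 3, PBS 1 and PBS 3, and −2.26 without METH 1.

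The remaining 4 of these 10 also overlapped between the groups. novel_59 averaged 385 ± 226 normalised CPM in METH and 241 ± 79.0 in PBS (log2 fold change 0.67, SE 0.66; SD, n = 4 each), and leaving out METH 3 or METH 4 gave 0.39 or 0.41. novel_102 averaged 124 ± 54.0 in METH and 86.6 ± 51.1 in PBS (0.52, SE 0.71). Its value was 0.25 without PBS 3, 0.28 without METH 4, 0.30 without PBS 2, 0.79 without PBS 1 and 0.048 with total counts. novel_86 averaged 152 ± 132 in METH and 94.1 ± 92.7 in PBS (0.69, SE 0.93), and the value was −0.05 without METH 4. novel_591 averaged 30.5 ± 37.7 in METH and 18.8 ± 11.8 in PBS (0.68, SE 0.88), and the value was −0.76 without METH 3, which alone held 86.9.

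The 9 most abundant members had log2 fold changes between −0.29 and 0.37, with wide intervals. novel_35, at rank 10, had 0.80, as given above. novel_2 averaged 48061 ± 39013 normalised CPM in METH and 44961 ± 19620 in PBS (SD, n = 4 each; log2 fold change 0.10, 95% interval −1.34 to 1.53), and without METH 3 the value was −0.72. novel_6 had 0.37 (95% interval −1.36 to 2.10; −0.87 without METH 3) and novel_9 had 0.23 (−1.30 to 1.76; −0.77 without METH 3). novel_16 had −0.05 (−1.08 to 0.99), and novel_26 had −0.13 (−1.56 to 1.31; 0.26 without PBS 3 and −0.96 without METH 3). Of the next 4, novel_482 had −0.28, novel_27 0.02, novel_516 −0.29 and novel_367 0.22, with standard errors between 0.58 and 0.93. Leaving out 1 library moved all of these: novel_482 was at −0.85 without METH 2 and −0.10 without PBS 4, and novel_516 at −0.64 without PBS 1 and −0.095 without PBS 4. novel_27 was at −1.53 without METH 3 and 0.42 without METH 4, and novel_367 at −0.52 without METH 3 and 0.41 without METH 4. Each of these 9 intervals held 0.

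novel_146, which the series title sets beside Tfdp2, a dimerisation partner of E2F transcription factors, ranked 62 of the 77 members and 186 of all 384 miRNAs by mean share. It was at 2.10, 4.36, 2.63 and 5.09 normalised CPM in METH 1 to 4 and at 7.74, 11.8, 32.2 and 6.61 in PBS 1 to 4. Every METH library lay below every PBS library, from counts of 1, 3, 1 and 27 in METH 1 to 4 and of 6, 6, 23 and 41 in PBS 1 to 4. It was the single member of the 77 whose groups did not overlap, and no other of the 210 miRNAs with 80 or more reads had this (0.476%). It lay below the count filter, and with no filter its log2 fold change was −1.88 (SE 0.93, 95% interval −3.82 to 0.07, edgeR adjusted p = 0.999). The unadjusted edgeR p of that fit was 0.057. The value stayed negative under all 17 alternatives, but its size varied. It was −1.22 without PBS 3 and −1.02 without METH 3, PBS 1 and PBS 3, the weakest of them. Every other scaling gave a more negative value, between −2.58 (total counts) and −2.13. Under those scalings the unadjusted edgeR p was between 0.025 (total counts) and 0.036 (DESeq2 size factors), with no adjusted p below 0.994. Without PBS 3 the unadjusted edgeR p was 0.27. The log2 fold change was −2.53 without the libraries numbered 4. The basis on which the study picked novel_146 is not stated in the labels, so this order of the libraries is not independent evidence.

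**Figure D5:**
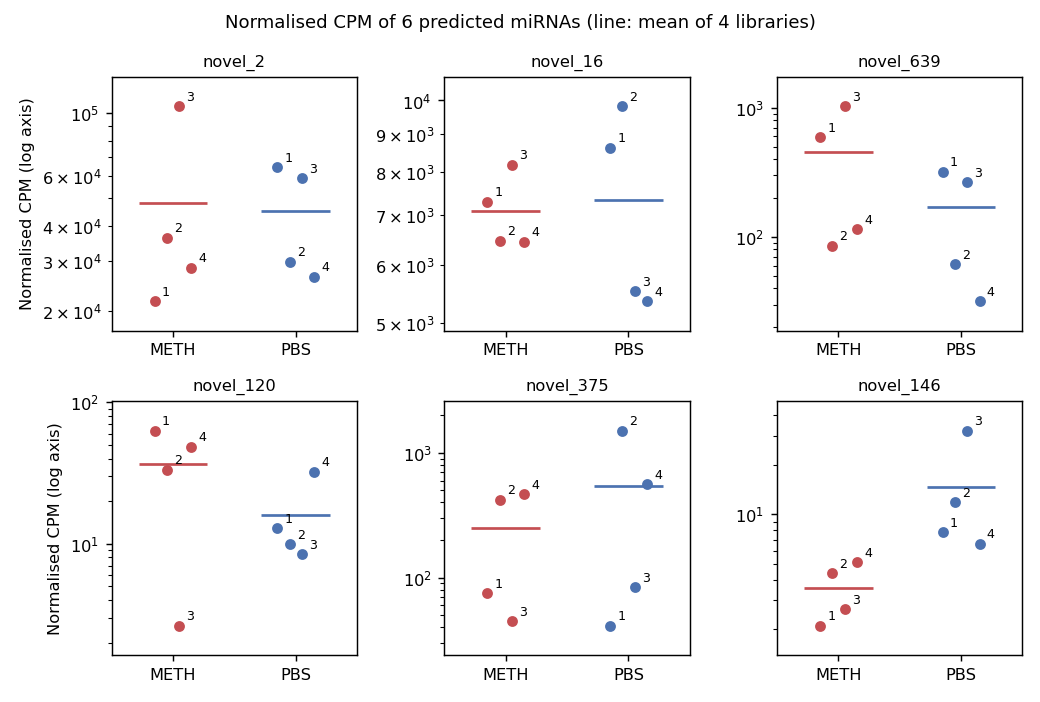
Normalised CPM (log axis) of 6 members in the 4 METH and 4 PBS libraries, with 1 point for each library, labelled by its number, and a line at the mean. The groups overlap for novel_2, novel_16, novel_639, novel_120 and novel_375, and do not for novel_146, whose highest METH value of 5.09 lies below the lowest PBS value of 6.61.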

How the data were processed

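Small RNA libraries of 4 METH and 4 PBS cultures were analysed from the authors' deposited table. Per the file headers, it gives a raw read count and a TPM value for each library. The deposited TPM equal the count over the library's total, with no length term (largest difference 4.51e-05). No source used here names the aligner, miRNA reference, prediction tool or genome build. Counts of each replicate pair differed by more than sampling noise. The protocols name no molecular identifiers, so intervals of shares and limits of 0 counts (3 counts) cover counting error only.

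All 384 miRNAs entered edgeR 4.0.16 in R 4.3.3 (TMM, filterByExpr with minimum count 10 and minimum total 15, robust quasi-likelihood F test, Benjamini-Hochberg over 166 miRNAs, threshold 0.05), and only the members' values are given. The standard error comes from the F statistic. Members below the filter have values from the same fit with no filter. DESeq2 1.42.0, other scalings and filters, and left-out libraries were alternatives. The script was tested on simulated counts whose dispersion (spread beyond counting error) was lower than the 0.615 of these data. That test therefore does not show how well changes would be found here.

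Named members are novel_146, the 10 most abundant, the 10 with the smallest edgeR p, those whose groups do not overlap, the 4 widest and 4 narrowest ranges, and those next to the threshold of 80. novel_122, novel_175 and the members in the closing observations were chosen after their values were seen. Members, lists and rules were chosen with earlier results of these data known.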

Additional observations from a re-analysis of the deposited data

Results flagged for a closer look

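In each group of 4 libraries, the gap of the highest or lowest library to its nearest neighbour was divided by the group's range, and values above Dixon's 95% critical value for 4 samples are given here. Of 70 groups looked at, 15 passed, where chance gives about 1 in 20 for normally distributed values. The values were not log-transformed and their distribution was not tested, so 1 in 20 is only a rough guide. They share libraries, so they are not independent.

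METH 3 was the high library in most of them. This ratio cannot flag a pair of high libraries in a group, because each is the other's nearest neighbour. PBS 1 and PBS 3, where the members' share was 23.3% and 22.3%, were therefore not flagged for it. The members' share of counts there was 28.03%, against 4.46% to 8.17% in the other METH libraries (ratio 0.843). In normalised CPM, METH 3 was at 70117 for novel_6 against at most 12614 in the other METH libraries (0.953), and at 40324 for novel_9 against at most 11550 (0.830). It was at 9897 for novel_26 against at most 3340 (0.842), at 3719 for novel_27 against at most 704 (0.871), and at 1535 for novel_367 against at most 497 (0.957). Of rarer members, METH 3 was at 86.9 for novel_591 against at most 15.98 (0.907), and at 18.4 for novel_412 against at most 4.19 (0.917).

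novel_62 stood apart in both libraries numbered 4, with 600.2 normalised CPM in METH 4 against at most 87.2 in the other METH libraries (0.882), and 734 in PBS 4 against at most 106 in the other PBS libraries (0.861). novel_545 was at 18.1 normalised CPM in PBS 1 against at most 5.92 in the other PBS libraries (0.885). novel_2 held 48.8% of the member counts in PBS 3, against at most 41.1% in the other PBS libraries (0.898). 77 members had a read in PBS 4 and 74 in each other PBS library (1.00). After thinning, 74.0 members were seen in METH 3 against 72.1 to 72.4 in the other METH libraries (0.860), and 69.3 in PBS 2 against 73.1 to 73.7 in the other PBS libraries (0.859).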

How the results depend on the processing

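No setting called a member or any other miRNA: the count was 0 under each of the 18 alternatives to the fit. Of the members that a setting tested, from 0 to 2 had an unadjusted p under 0.05. novel_146 lay below the main count filter, and its values under other scalings are given above. The lowest adjusted p of any was 0.866, without METH 3. The members' median log2 fold change ranged from −0.26 with total counts to 0.35 without PBS 1. A threshold of 40 or 200 reads gave 92 or 56 members, and the 6 shallower libraries scaled up gave 84, of which 74 were among the 77.

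Of 20 members with a reported log2 fold change, 10 kept their sign under every alternative and 10 did not. With DESeq2, DESeq2 size factors, upper quartile factors, total counts, TMM from known miRNAs, no filter, a mean count of at least 10, no libraries numbered 4, and the replicate block, novel_2 was at −0.073, −0.079, −0.11, −0.34, −0.15, −0.11, −0.13, −0.020 and −0.063, and novel_27 at −0.19, −0.19, −0.22, −0.53, −0.26, −0.26, −0.31, −0.11 and −0.21. Total counts gave −0.053 for novel_6, −0.16 for novel_9 and −0.26 for novel_367. A mean count of at least 10 gave −0.0066 for novel_9 and −0.011 for novel_367, and TMM from known miRNAs gave −0.037 for novel_367. Leaving out 1 library at a time gave −0.72 to 0.33 for novel_2, −0.87 to 1.00 for novel_6, −0.77 to 0.65 for novel_9, −0.23 to 0.17 for novel_16, −0.96 to 0.26 for novel_26, −1.53 to 0.42 for novel_27, −0.52 to 0.41 for novel_367, −1.57 to 0.10 for novel_375, −0.76 to 1.05 for novel_591 and −0.050 to 1.62 for novel_86. The cause was not tested.

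The replicate block called 0 members, with a median log2 fold change of 0.15. The numbers share no stated animal, culture or day, and the deviations of same-numbered libraries correlated at −0.25, 0.54, 0.77 and 0.89 for numbers 1 to 4, and since 1 of the 4 was negative the numbers were not taken as pairs. METH 2, METH 3 and METH 4 correlated best with the PBS library of their own number, METH 1 with PBS 2 (0.53), and PBS 1 with METH 3 (0.77), which is a hint from the data and not from the design. The share of counts outside miR-21-5p was added after the data were seen, and the group means were then 15.3% in METH and 16.8% in PBS.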

Other observations

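The members below were chosen after their values were seen, and no test was made of them. novel_140 was counted almost only in METH 3 and PBS 1. It had 1, 0, 35 and 4 reads in METH 1 to 4 and 77, 0, 0 and 8 in PBS 1 to 4. The epithelial miRNA miR-200b-3p had 3, 0, 120 and 9 reads in METH 1 to 4 and 183, 3, 4 and 13 in PBS 1 to 4, with its highest counts in the same 2 libraries. Both libraries are among the shallower ones, with 339243 and 526031 counts.

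novel_534, novel_95 and novel_72 ordered the libraries in nearly the same way. novel_534 was at 1100 normalised CPM in METH 1, 399 in METH 2, 366 in METH 3 and 131 in METH 4, and at 754, 235, 557 and 93.8 in PBS 1 to 4. novel_95 was at 583, 232, 203 and 59.5 in METH 1 to 4 and at 414, 96.8, 292 and 46.1 in PBS 1 to 4. novel_72 was at 365, 164, 182 and 78.9 in METH 1 to 4 and at 309, 160.0, 169 and 68.7 in PBS 1 to 4. In normalised CPM, METH 1 was the highest, PBS 1 the next, METH 4 the second lowest and PBS 4 the lowest library for all 3. In TPM, PBS 1 was the highest and PBS 3 the next for all 3, while METH 4 and PBS 4 stayed the lowest. The table gives no sequence or position for them.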
